A study of Mus musculus with 12 samples.

Results

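Hippocampal RNA of 3 mice given the mVEGF-C vector and the anti-amyloid antibody mAducanumab (mVEGF-C+mAdu, mice 10, 11 and 12) was compared across all genes with that of 3 mice given the same vector and control immunoglobulin (mVEGF-C+mIgG, mice 7, 8 and 9). These are 6 of the 12 sequenced mice, chosen by vector and antibody label alone and not by any measured value. The other 6 mice carried a control vector, with mAducanumab (eGFP+mAdu, mice 4, 5 and 6) or control immunoglobulin (eGFP+mIgG, mice 1, 2 and 3). All 12 mice are labelled as male APPswe animals aged 22 to 26 months, a line that carries a transgene for human amyloid precursor protein with the Swedish mutation. The vector was an AAV1 virus, given as 5 µL into the cisterna magna, in which the CMV promoter, active in many cell types, drives mouse VEGF-C or enhanced green fluorescent protein. Weekly intraperitoneal injections of mAducanumab or mIgG at 40 mg/kg were combined with it. The question, from the design, is what the antibody changes in brain tissue when a growth factor for lymphatic vessels is supplied at the same time.

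Aducanumab binds aggregated amyloid beta, and antibody bound to plaques is known to engage Fc receptors on microglia, the resident phagocytes of the brain. Microglia around plaques take on a state with high levels of lysosomal, complement and antigen presentation genes, and nearby astrocytes become reactive. Type I interferon, a cytokine of antiviral defence, induces a broad gene programme in both cell types that is also seen in ageing and amyloid-bearing brains. VEGF-C acts on its receptor VEGFR-3, encoded by Flt4, and promotes growth of lymphatic vessels, including those of the meninges that drain fluid from the brain.

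The labels disagree on the tissue, as the sample source names the meninges whereas the series design gives the whole right hippocampus of a single mouse per library. In the 6 mVEGF-C libraries, the median level over the 13 measured dentate granule cell markers ran from 63.1 to 72.1 CPM with mAdu and from 56.5 to 73.4 CPM with mIgG. Over 20 markers of meningeal and perivascular fibroblasts the median was 5.82 to 7.72 CPM with mAdu and 7.12 to 8.25 CPM with mIgG. CPM are read counts relative to the scaled library total, and these libraries held 24270575 to 26111430 counted reads. App, which may also collect reads of the transgene, lay at 5238, 5507 and 5347 CPM in the mAdu mice, against 4721, 4995 and 4786 CPM in the mIgG mice. In the eGFP+mAdu mice, which enter the same fit, App was at 5487, 1342 and 3716 CPM in mice 4, 5 and 6. The library of mouse 5 thus went against the APPswe label. Mouse 6 lay between mice 4 and 5 and below all 6 mVEGF-C mice. In each of the 4 groups, 1 library stood between the other 2. Mouse 12 held the middle value in 82.7% of the 1150 genes that varied within mVEGF-C+mAdu beyond counting noise. Mouse 9 did so in 78.5% of the 2758 such genes within mVEGF-C+mIgG. For mouse 6 the share was 80.3% of 1686 genes in eGFP+mAdu, and for mouse 3 it was 64.5% of 3259 in eGFP+mIgG. An equal share is 33.3%. Such libraries may or may not share RNA with their group mates, which was not tested. The p-values take every library as its own mouse, as labelled, and shared RNA would make them too small.

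**Figure D1:**
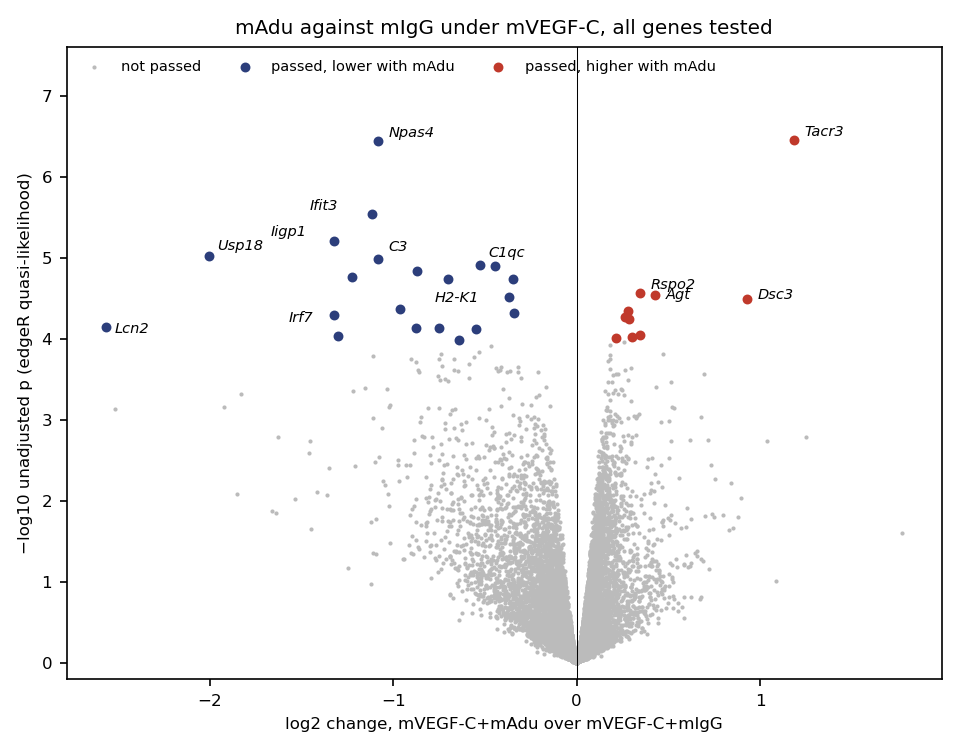
Each point is 1 of the 14881 genes tested, placed by its log2 change (mVEGF-C+mAdu over mVEGF-C+mIgG) on the horizontal axis and by −log10 of its unadjusted p on the vertical axis. The 21 genes that passed as lower with mAdu (blue) reach a log2 change of -2.56 for Lcn2, and the 10 that passed as higher (red) reach 1.18 for Tacr3.

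With mAdu under the mVEGF-C vector, the genes that fell included 7 of the interferon response, the MHC class I genes H2-K1 and H2-D1, the complement genes C3, C1qa and C1qc, the iron carrier gene Lcn2, the neuronal activity gene Npas4 and the myelin gene Mobp. The genes that rose were of other kinds, led by the neurokinin receptor gene Tacr3 and the desmosomal gene Dsc3. Of 14881 genes, 31 (0.208%) passed an adjusted p of 0.05 (edgeR quasi-likelihood, Benjamini-Hochberg over the whole table). Of these, 21 (0.141% of all genes) were lower and 10 (0.0672%) were higher with mAdu. The median log2 change was -0.88 over the 21 genes and 0.32 over the 10, while over all genes it was 0.00118. In each of the 31 genes the 3 mAdu mice lay wholly below or wholly above the 3 mIgG mice. Across all genes, every mAdu mouse lay below every mIgG mouse in 1208 (8.12%) and above in 1245 (8.37%), so full separation was about as frequent in each direction. Many genes lay just beyond the threshold, since 64 genes (45 lower, 19 higher) had an adjusted p under 0.06 and 118 (73 lower, 45 higher) under 0.1. Of the 14881 genes, 996 (6.69%) were lower and 899 (6.04%) higher with mAdu at an unadjusted p under 0.05. The other 2 tools called more, namely DESeq2's Wald test 0.504% lower and 0.343% higher, and limma-voom with quality weights 4.25% lower and 4.05% higher, all at an adjusted p of 0.05. Counts within gene lists below are to be read against these shares. In bulk tissue, fewer cells of a type and less RNA per cell cannot be told apart.

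**Figure D2:**
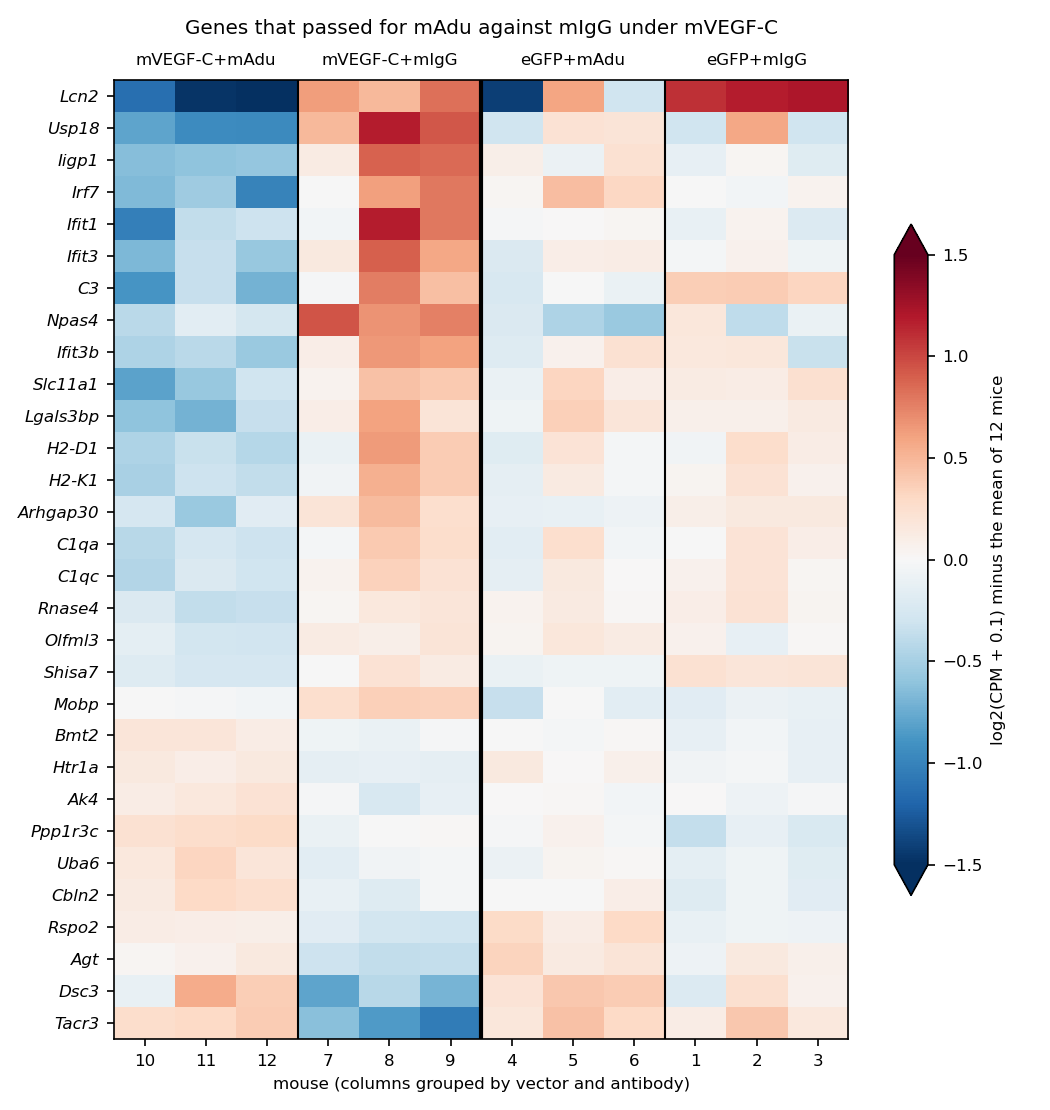
Colour gives log2(CPM + 0.1) minus the mean of the 12 mice for the 30 named genes that passed (rows, ordered by change) in each mouse (columns, grouped by vector and antibody). In every lower gene, mice 10, 11 and 12 lie below the 12-mouse mean, by least in Mobp, and mouse 7 is paler than mice 8 and 9 in the interferon, MHC and complement genes. Lcn2 is highest in the eGFP+mIgG mice 1, 2 and 3.

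Members of the interferon gene lists made up 7 of the 21 genes that fell, and the predicted gene Gm43302 was not placed in these lists. Ifit3 (ENSMUSG00000074896), an antiviral protein induced by interferon, was at 5.76, 7.28 and 6.20 CPM in the mAdu mice, against 10.3, 17.3 and 13.95 CPM in the mIgG mice. Usp18, a protease that removes ISG15 and dampens signalling of the type I interferon receptor, was at 0.461, 0.404 and 0.402 CPM in the mAdu mice, against 1.26, 2.11 and 1.75 CPM in the mIgG mice. Irf7, a transcription factor that amplifies type I interferon production, stood at 0.845, 0.930 and 0.644 CPM in the mAdu mice, against 1.39, 2.19 and 2.48 CPM in the mIgG mice. In all 3 genes the groups did not overlap, the mAdu mice lay close together, and mouse 7 was the lowest of the mIgG mice. Log2 changes were -1.11 (SE 0.157) for Ifit3, -2.003 (SE 0.311) for Usp18 and -1.32 (SE 0.239) for Irf7. Iigp1, an immunity-related GTPase, was at 1.42, 1.46 and 1.49 CPM in the mAdu mice, against 2.49, 4.29 and 4.16 CPM in the mIgG mice, a log2 change of -1.33 (SE 0.199). Lgals3bp, a secreted glycoprotein induced by interferon, fell to 6.68 ± 0.903 CPM with mAdu, against 12.2 ± 2.42 CPM with mIgG (SD, n = 3 each), a log2 change of -0.87 (SE 0.141). Adjusted p (edgeR quasi-likelihood, Benjamini-Hochberg) was 0.0145 for Ifit3, 0.0228 for Usp18, Iigp1 and Lgals3bp, and 0.0377 for Irf7.

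The promoters of the Ifit genes that fell are shown for the motif that interferon-activated factors are known to bind. Sequences are RefSeq windows on GRCm38.p6, from 250 bases before to 50 bases after the start of the gene, for Ifit3 at chr19:34583279-34583578 (plus strand), Ifit3b at chr19:34607707-34608006 (plus strand) and Ifit1 at chr19:34640639-34640938 (plus strand). Capitals mark matches to the core of the interferon-stimulated response element, GAAANNGAAA, searched on both strands, and all 6 matches lie on the opposite strand, so that the letters shown are its reverse complement.
Ifit3: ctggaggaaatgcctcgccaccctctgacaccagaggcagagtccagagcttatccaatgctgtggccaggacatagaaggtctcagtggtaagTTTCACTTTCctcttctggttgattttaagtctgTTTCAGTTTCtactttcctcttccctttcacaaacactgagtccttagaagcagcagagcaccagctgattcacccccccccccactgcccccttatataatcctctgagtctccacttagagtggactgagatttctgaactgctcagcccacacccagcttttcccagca
Ifit3b: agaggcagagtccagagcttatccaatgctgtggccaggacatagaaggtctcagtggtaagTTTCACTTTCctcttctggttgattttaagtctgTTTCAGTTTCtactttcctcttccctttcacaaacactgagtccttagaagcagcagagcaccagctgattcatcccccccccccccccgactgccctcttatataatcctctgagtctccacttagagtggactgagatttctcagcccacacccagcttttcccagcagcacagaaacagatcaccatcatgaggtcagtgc
Ifit1: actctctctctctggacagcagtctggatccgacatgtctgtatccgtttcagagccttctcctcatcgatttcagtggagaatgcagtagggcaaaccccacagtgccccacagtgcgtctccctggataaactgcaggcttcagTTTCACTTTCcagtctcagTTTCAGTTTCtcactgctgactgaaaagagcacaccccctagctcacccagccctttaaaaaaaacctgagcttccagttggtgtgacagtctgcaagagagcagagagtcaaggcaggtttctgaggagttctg
Each promoter held 2 matches, at 156 to 147 and 122 to 113 bases before the start in Ifit3, 188 to 179 and 154 to 145 in Ifit3b, and 104 to 95 and 85 to 76 in Ifit1. The same core occurs in 3.44% of 32851 mouse promoter windows. Promoter windows were held for 23 of the 31 genes, and besides the Ifit genes 1 other, Bmt2, which rose, had a match. Matching letters describe these windows only and show no binding.

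Ifit1, which binds viral RNA, was at 1.54, 2.47 and 2.58 CPM in the mAdu mice, against 3.14, 7.39 and 5.64 CPM in the mIgG mice, and Ifit3b, a close copy of Ifit3, stood at 3.61, 3.76 and 3.38 CPM in the mAdu mice, against 5.38, 7.91 and 7.66 CPM in the mIgG mice. Neither gene's groups overlapped, and in Ifit1 mouse 10 was far below the other mAdu mice while mouse 7 lay nearest to them. Log2 changes were -1.30 (SE 0.250) for Ifit1 and -0.96 (SE 0.172) for Ifit3b, with adjusted p of 0.0482 for Ifit1 and 0.0374 for Ifit3b (edgeR quasi-likelihood, Benjamini-Hochberg). The Ifit genes share sequence, and the handling of reads that map to several places is not given in the sources used here, which leaves the split among them uncertain.

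Of 23 measured interferon-induced effector and feedback genes, 5 fell (Ifit3, Usp18, Lgals3bp, Ifit3b and Ifit1) and none rose in edgeR's test. All 23 had a negative log2 change, with a median of -0.62 beside 0.00118 over all genes, and in 17 the groups did not overlap. Rsad2, the antiviral enzyme viperin, did not pass at 1.15, 0.930 and 1.13 CPM in the mAdu mice, against 1.71, 2.98 and 2.25 CPM in the mIgG mice (log2 change -1.11, SE 0.225). Oasl2, of the oligoadenylate synthetase family, did not pass either, at 1.88, 1.496 and 2.21 CPM in the mAdu mice, against 3.18, 6.24 and 3.62 CPM in the mIgG mice (log2 change -1.22, SE 0.274). Among 10 interferon-inducible GTPases, Iigp1 fell, all 10 changes were negative and 9 did not overlap between the groups (median -0.72). Gbp9, Gbp3 and Gbp2, guanylate-binding proteins, had log2 changes of -0.76 (SE 0.163), -0.75 (SE 0.163) and -0.81 (SE 0.193) and did not pass. The 20 genes of interferon sensing and signalling had a median of -0.11, with 13 negative and 7 positive changes, and Irf7 alone passed. Without mouse 8 that median was -0.04. The interferon receptor genes Ifnar1 and Ifnar2 had log2 changes of 0.04 and 0.07, without passing. The mean centred level of the 23 effectors was -0.393, -0.357 and -0.389 in mice 10, 11 and 12, against 0.05, 0.552 and 0.335 in mice 7, 8 and 9 (log2, 0 being the mean of 12 mice). Each mAdu mouse was thus below each mIgG mouse, with a wide spread among the mIgG mice only.

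**Figure D3:**
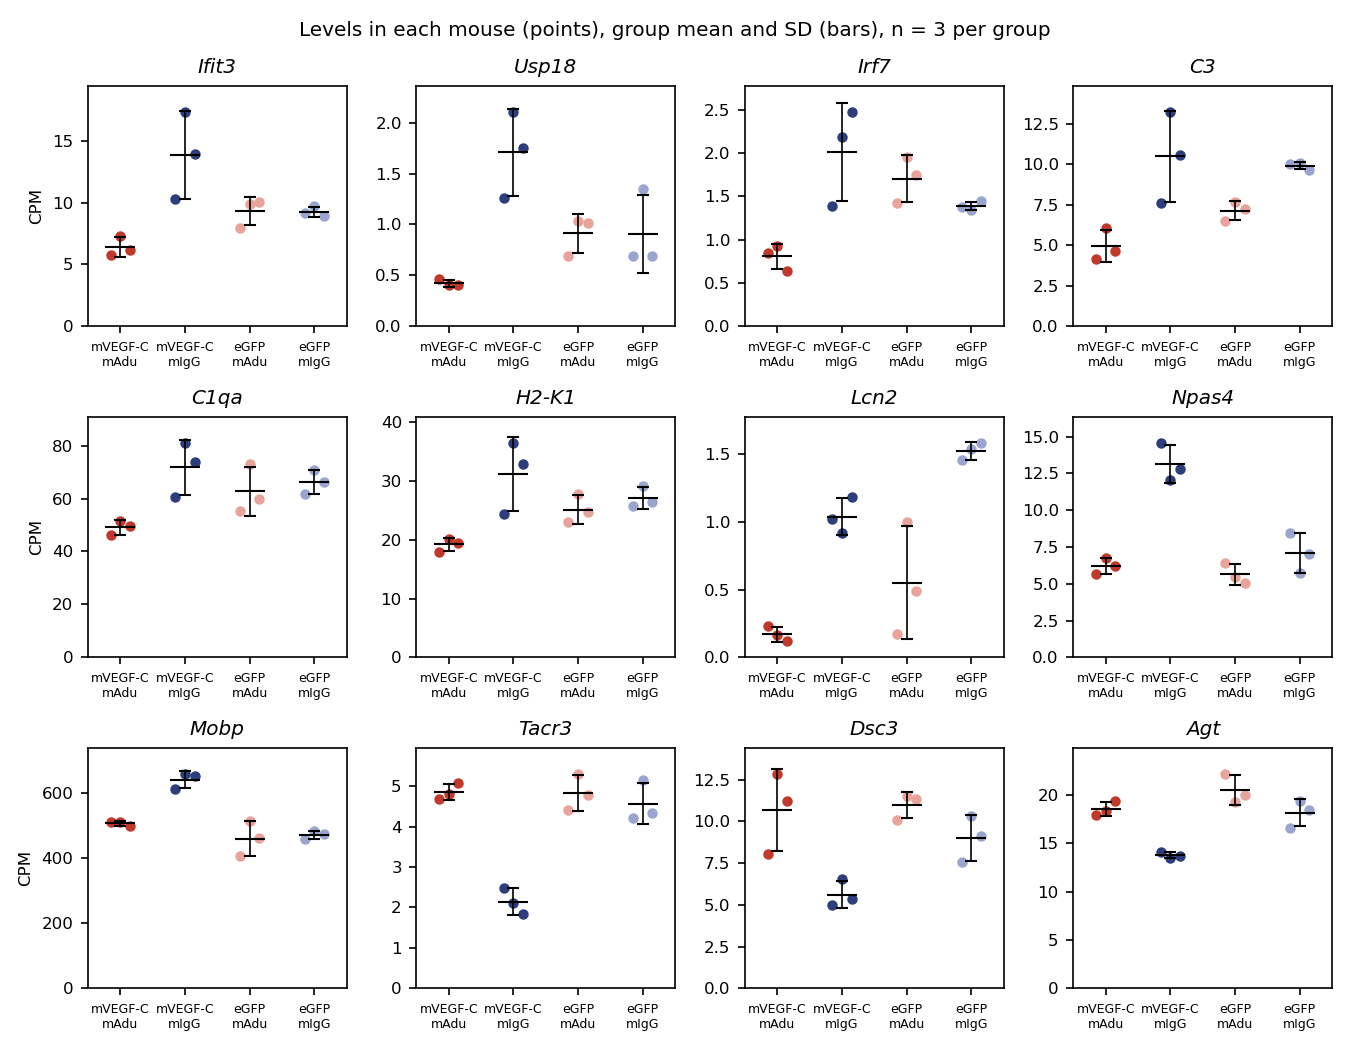
CPM of 12 genes that passed in each mouse (points), with group mean and SD (bars, n = 3), in the order mVEGF-C+mAdu, mVEGF-C+mIgG, eGFP+mAdu and eGFP+mIgG. For Ifit3, Npas4 and Mobp the mVEGF-C+mIgG mice stand above all others, whereas for Tacr3, Dsc3 and Agt they stand below all others.

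MHC class I molecules display peptides from inside a cell, and 2 of their classical heavy chain genes fell with mAdu. H2-K1 was at 18.0, 20.2 and 19.4 CPM in the mAdu mice, against 24.3, 36.5 and 32.9 CPM in the mIgG mice (log2 change -0.70, SE 0.116). H2-D1 was at 31.4, 34.4 and 32.2 CPM in the mAdu mice, against 40.6, 67.5 and 56.5 CPM in the mIgG mice (log2 change -0.75, SE 0.141). Both separated the groups fully, with mouse 8 highest and mouse 7 lowest of the mIgG mice, and adjusted p was 0.0228 for H2-K1 and 0.0429 for H2-D1 (edgeR quasi-likelihood, Benjamini-Hochberg). B2m, the shared light chain, did not pass at 74.0, 70.1 and 70.4 CPM in the mAdu mice, against 85.1, 128 and 102 CPM in the mIgG mice (log2 change -0.56, SE 0.113). Psmb8, an immunoproteasome subunit, had a log2 change of -0.67 (SE 0.141) and H2-Q4, a non-classical heavy chain, one of -0.91 (SE 0.185), and neither passed. Of the 20 class I presentation genes, 2 fell and none rose in edgeR's test, 9 lay wholly lower with mAdu and 1 wholly higher, and the median log2 change was -0.24. The general chaperones of the list had positive log2 changes, 0.03 for Calr, 0.01 for Pdia3 and 0.09 for Canx, and Canx was the 1 gene wholly higher with mAdu (unadjusted p = 0.0272, not passing). H2-K1, H2-D1 and H2-Q4 are close paralogs, so their separate counts are uncertain.

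Among the 7 MHC class II presentation genes, 0 passed in edgeR's test, although 5 had a negative change at an unadjusted p under 0.05. DESeq2's Wald test called 0 of them and limma-voom with quality weights called 1 lower. All 7 changes were negative (median -0.57, or -0.14 in a fit with choroid plexus level as covariate), and in 2 of the 7 the groups did not overlap. Cd74, the invariant chain, was at 1.61, 1.78 and 2.37 CPM in the mAdu mice, against 1.67, 4.81 and 3.85 CPM in the mIgG mice (log2 change -0.85, SE 0.325). Mouse 7 lay within the range of the mAdu mice in this gene, and mice 8 and 9 above it.

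Complement tags debris and synapses for removal by phagocytes, and 3 of its 7 measured classical and common components fell. C3, the central component, was at 4.15, 6.06 and 4.67 CPM in the mAdu mice, against 7.62, 13.2 and 10.6 CPM in the mIgG mice (log2 change -1.08, SE 0.170). C1qc and C1qa encode chains of C1q, which starts the classical pathway. C1qc was at 30.8, 36.0 and 34.0 CPM in the mAdu mice, against 43.5, 53.2 and 48.6 CPM in the mIgG mice (log2 change -0.53, SE 0.0840). C1qa stood at 46.1, 51.5 and 49.7 CPM in the mAdu mice, against 60.6, 81.1 and 73.7 CPM in the mIgG mice (log2 change -0.55, SE 0.103). None of these 3 genes overlapped between the groups, mouse 10 was the lowest of all 6 mice in each, and mouse 8 the highest. Adjusted p (edgeR quasi-likelihood, Benjamini-Hochberg) was 0.0228 for C3 and C1qc and 0.0429 for C1qa. C1qb, the remaining C1q chain, did not pass at 34.3, 35.5 and 33.9 CPM in the mAdu mice, against 44.9, 51.9 and 43.8 CPM in the mIgG mice (log2 change -0.44, SE 0.0921). C4b, cleaved next in the classical pathway, did not pass either, at 119, 147 and 129.5 CPM in the mAdu mice, against 190.3, 346 and 272 CPM in the mIgG mice (log2 change -1.03, SE 0.231), and reads of its copy C4a may be mixed with it. All 7 components had a negative change, with a median of -0.53, and 5 did not overlap. The 11 complement regulators had a median of -0.01, with 6 negative and 5 positive changes, and 0 passed in edgeR's test, where 1 was lower and 1 higher at an unadjusted p under 0.05. DESeq2 called 0 regulators and limma-voom 1 lower.

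**Figure D4:**
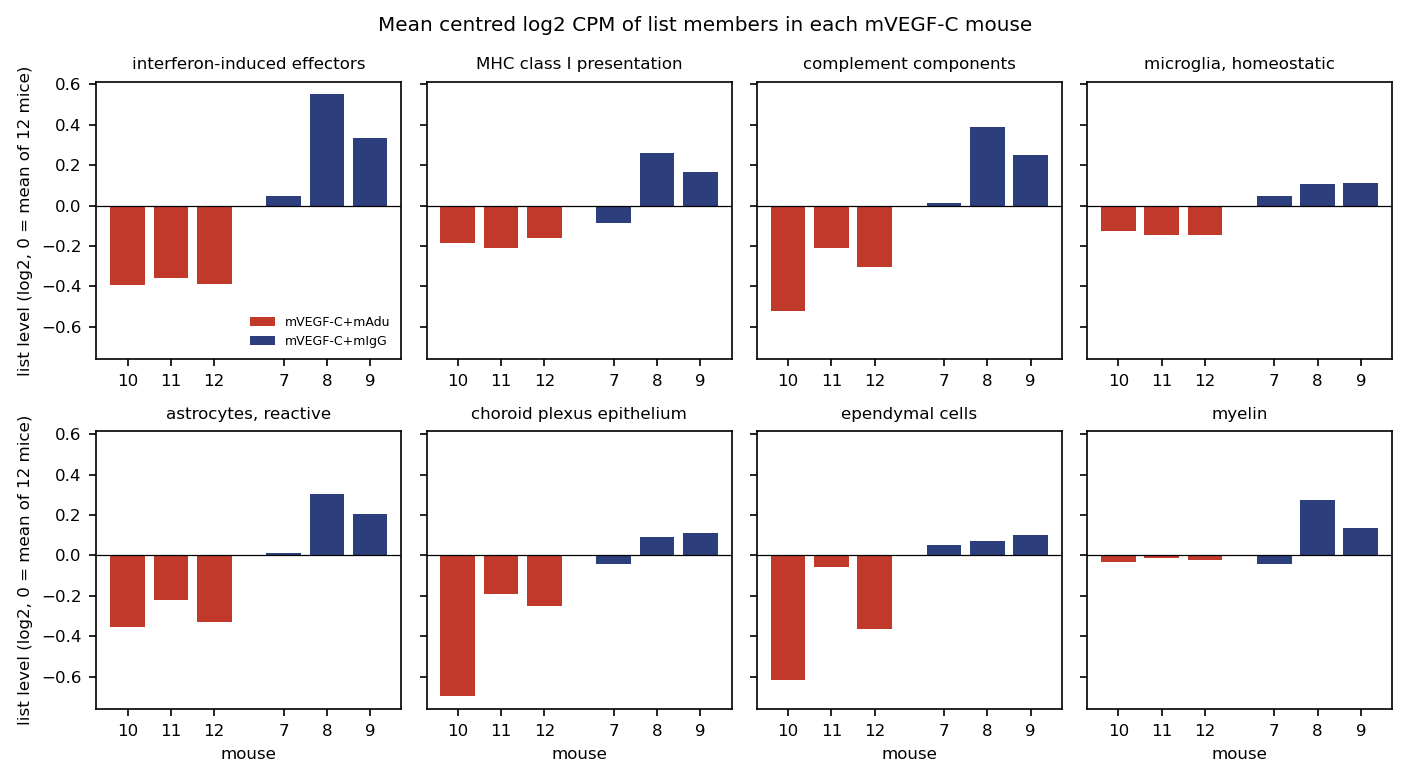
Bars give, for each of the 6 mVEGF-C mice, the mean over list members of log2 CPM centred on the mean of the 12 mice, for 8 gene lists. In the interferon, MHC class I, complement, homeostatic microglia, reactive astrocyte, choroid plexus and ependymal panels the mAdu mice (red) all lie below the mIgG mice (blue), and in the myelin panel they do not.

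Genes of plaque-associated microglia had mostly negative changes, but none of the 28 measured members of the disease-associated microglia list passed in edgeR's test. Unadjusted p under 0.05 was found for 18 lower and 0 higher members, and DESeq2's Wald test called 9 lower and limma-voom 15 lower. In all, 25 of the 28 changes were negative (median -0.28, or -0.15 without mouse 8) and 16 members separated the groups fully, beside 8.12% of all genes. Itgax, which encodes the integrin CD11c, was at 0.423, 0.445 and 0.604 CPM in the mAdu mice, against 0.693, 2.78 and 2.10 CPM in the mIgG mice (log2 change -1.92, SE 0.455). Cst7, the protease inhibitor cystatin F, was at 0.192, 0.202 and 0.241 CPM in the mAdu mice, against 0.367, 1.91 and 1.41 CPM in the mIgG mice (log2 change -2.52, SE 0.601). In both, mice 8 and 9 were far above the other 4 mice and mouse 7 was close to the mAdu mice. Clec7a, the receptor Dectin-1, had a log2 change of -1.35 (SE 0.400), while Trem2, the lipid receptor needed for this state, and its adaptor Tyrobp had -0.43 (SE 0.123) and -0.47 (SE 0.128). Apoe, a lipid carrier also made by astrocytes, was at 1281, 1314 and 1286 CPM in the mAdu mice, against 1433, 1412 and 1451 CPM in the mIgG mice, a small difference of -0.15 (SE 0.0424) without overlap. Adjusted p (edgeR quasi-likelihood, Benjamini-Hochberg) was 0.0965 for Itgax, 0.0968 for Cst7, 0.168 for Clec7a and 0.157 for Trem2.

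Among markers of microglia at rest, 1 passed. Olfml3, a secreted protein made by microglia, fell and was at 21.5, 19.7 and 19.6 CPM in the mAdu mice, against 25.9, 25.4 and 27.3 CPM in the mIgG mice (log2 change -0.37, SE 0.0640). Of 16 homeostatic microglia markers it was the only one that passed, 15 changes were negative, 9 separated the groups, and the median was -0.18. Cx3cr1, the fractalkine receptor, was at 65.1, 63.9 and 65.7 CPM in the mAdu mice, against 69.8, 75.1 and 76.0 CPM in the mIgG mice and did not pass (log2 change -0.18, SE 0.0459). P2ry12, the purinergic receptor of resting microglia, had a log2 change of -0.03. The summed level of the 16 markers was 516, 502 and 509 CPM in mice 10, 11 and 12, against 559.7, 584 and 592 CPM in mice 7, 8 and 9, without overlap. Its part in the changes of complement, MHC and interferon genes was not tested. Slc11a1, a metal transporter of phagosomes, fell and was at 1.84, 2.18 and 2.66 CPM in the mAdu mice, against 3.42, 4.49 and 4.35 CPM in the mIgG mice (log2 change -0.88, SE 0.164). Arhgap30, expressed mainly in blood-derived and immune cells, fell with 3.42, 2.75 and 3.62 CPM in the mAdu mice, against 4.69, 5.72 and 4.88 CPM in the mIgG mice (log2 change -0.64, SE 0.124). Rnase4, a secreted ribonuclease that shares its promoter with Ang, fell to 13.8 ± 0.796 CPM with mAdu, against 18.8 ± 1.06 CPM with mIgG (SD, n = 3 each), a log2 change of -0.44 (SE 0.0707). Adjusted p was 0.0299 for Olfml3, 0.0429 for Slc11a1, 0.0497 for Arhgap30 and 0.0228 for Rnase4 (edgeR quasi-likelihood, Benjamini-Hochberg).

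Receptors for the Fc part of antibodies are the direct partners of a plaque-bound antibody on microglia. Of 15 Fc receptor and antibody signalling genes, 0 passed in edgeR's test, with 7 lower at an unadjusted p under 0.05, and DESeq2 called 0 and limma-voom 5 lower. A negative change was seen in 14 of the 15 and the median was -0.24. Fcgr1, the high-affinity receptor, was at 3.19, 2.38 and 2.98 CPM in the mAdu mice, against 4.604, 5.13 and 4.12 CPM in the mIgG mice (log2 change -0.69, SE 0.168). Fcgr2b, the inhibitory receptor, was at 1.96, 2.18 and 2.25 CPM in the mAdu mice, against 2.65, 3.74 and 3.47 CPM in the mIgG mice (log2 change -0.63, SE 0.161). In both genes all mAdu mice were below all mIgG mice. Lysosomal genes had a median of -0.06 over 21 members, 0 of which passed in edgeR's test; 7 were lower and 1 higher at an unadjusted p under 0.05, DESeq2 called 3 lower and limma-voom 7 lower. Ctsz and Ctsd, cathepsin proteases, had changes of -0.32 (SE 0.0674) and -0.22 (SE 0.0511) among them.

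Reactive astrocyte genes gave 3 that fell, Lcn2, Iigp1 and H2-D1, of which Iigp1 and H2-D1 are described above. Lcn2, the iron-siderophore carrier lipocalin 2, was at 0.230, 0.162 and 0.121 CPM in the mAdu mice, against 1.02, 0.914 and 1.18 CPM in the mIgG mice. The groups did not overlap, and the log2 change of -2.56 (SE 0.479) was the most negative of all genes that passed (adjusted p = 0.0429, edgeR quasi-likelihood, Benjamini-Hochberg). Gfap, the intermediate filament of astrocytes, did not pass at 326, 314 and 326 CPM in the mAdu mice, against 338, 443 and 388 CPM in the mIgG mice (log2 change -0.27, SE 0.111), although the groups did not overlap. Of the 30 reactive astrocyte genes, 28 had a negative change, 20 separated the groups with mAdu lower, 0 separated them with mAdu higher, and the median was -0.36. The 14 homeostatic astrocyte markers had a median of -0.00337 with 8 negative and 6 positive changes, and 0 passed in edgeR's test, with 1 lower and 3 higher at an unadjusted p under 0.05. DESeq2 called 0 of them, and limma-voom 2 lower and 3 higher. Mt1 and Mt2, metallothioneins that bind zinc, had log2 changes of -0.25 (SE 0.0585) and -0.42 (SE 0.120) and did not pass.

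Markers of tissue next to the hippocampus were followed as well, and 0 of them passed. The 12 measured choroid plexus markers all had negative changes (median -0.44, or -0.25 without mouse 10), and 0 passed in edgeR's test, with 6 lower at an unadjusted p under 0.05, 0 called by DESeq2 and 1 lower by limma-voom. Their mean centred level was -0.698, -0.190 and -0.251 in mice 10, 11 and 12, against -0.0434, 0.0933 and 0.111 in mice 7, 8 and 9. Their summed level was 301, 297 and 297 CPM in mice 10, 11 and 12, against 300.1, 376 and 347 CPM in mice 7, 8 and 9, where mouse 7 overlapped the mAdu mice. The median marker lay at only 1.17, 1.88 and 1.79 CPM in mice 10, 11 and 12, against 1.98, 2.09 and 2.15 CPM in mice 7, 8 and 9. The mean centred level, also used as covariate below, thus rests largely on low counts, and the sum on the higher members. Ttr, the thyroid hormone carrier that defines this epithelium, was at 18.8, 14.3 and 16.8 CPM in the mAdu mice, against 19.2, 29.1 and 27.4 CPM in the mIgG mice (log2 change -0.60, SE 0.259). The 13 ependymal markers were all negative as well (median -0.41), with 8 separating the groups and a summed level of 36.3, 54.7 and 44.6 CPM in mice 10, 11 and 12, against 60.4, 62.8 and 60.1 CPM in mice 7, 8 and 9. Of these, 0 passed in edgeR's test, with 9 lower at an unadjusted p under 0.05, 0 by DESeq2 and 5 lower by limma-voom. The 20 markers of meningeal and perivascular fibroblasts summed to 425, 420.4 and 427 CPM in mice 10, 11 and 12, against 491, 561 and 531 CPM in mice 7, 8 and 9, which did not overlap. Apod, whose values are given further below, makes up a large part of that sum, and without Apod the groups overlap. The mean centred level of the 20 markers did overlap, at -0.337, -0.114 and -0.24 in mice 10, 11 and 12, against -0.0512, -0.173 and -0.0798 in mice 7, 8 and 9. Their median log2 change was -0.14, with 0 passing in edgeR's test. That median was -0.02 without mouse 10, -0.08 without mouse 7 and -0.25 without mouse 11. At an unadjusted p under 0.05, 5 of them were lower and 1 higher, while DESeq2 called 1 lower and limma-voom 4 lower and 1 higher. In a fit with choroid plexus level as covariate 0 of the 31 genes passed in edgeR's test (949 of all genes at an unadjusted p under 0.05), and their median absolute log2 change was 0.53 with a median SE of 0.196, beside 0.70 and 0.124 without it. Since the mean centred choroid plexus level does not overlap between the groups, covariate and antibody cannot be told apart. The part of the ependymal and fibroblast levels was not tested. Of lymphocyte markers only Ighm and Trbc2 were among the genes tested, and limma-voom called 2 lower and DESeq2 0. Ighm, an immunoglobulin heavy chain, had a log2 change of -0.37 (SE 0.0960), with all mAdu mice below all mIgG mice, and did not pass. Trbc2, of the T-cell receptor, was at 0.461, 0.606 and 0.362 CPM in the mAdu mice, against 0.530, 1.63 and 1.14 CPM in the mIgG mice, with mouse 7 inside the mAdu range, and it did not pass.

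Npas4, a transcription factor induced by calcium entry in active neurons, had the smallest p of the genes that fell. Its level was 5.65, 6.75 and 6.24 CPM in the mAdu mice, against 14.6, 12.0 and 12.8 CPM in the mIgG mice, so the highest mAdu mouse stood far below the lowest mIgG mouse and both groups were tight. The log2 change was -1.08 (SE 0.129) with an adjusted p of 0.00269 (edgeR quasi-likelihood, Benjamini-Hochberg). Npas4 lies at chr19:4984355-4990316 on the minus strand. Its RefSeq promoter window on GRCm38.p6, chr19:4989922-4990221 (minus strand), is given because activity genes are often controlled by CREB through the cAMP response element, and capitals mark the half-site TGACG on either strand.
Npas4: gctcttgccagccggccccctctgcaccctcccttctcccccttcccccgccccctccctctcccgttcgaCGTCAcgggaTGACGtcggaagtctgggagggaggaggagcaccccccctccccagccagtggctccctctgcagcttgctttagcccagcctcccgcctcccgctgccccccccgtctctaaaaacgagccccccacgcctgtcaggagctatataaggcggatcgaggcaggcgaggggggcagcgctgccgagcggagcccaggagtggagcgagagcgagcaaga
The window held 2 half-sites, 179 to 175 and 169 to 165 bases before the start, and 20.8% of all promoter windows hold at least 1. Among the 23 genes with a window, H2-D1, H2-K1, Irf7 and Tacr3 also had a match.

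No other gene of the neuronal activity lists passed. Fos, the classical early gene, was at 23.2, 36.4 and 27.8 CPM in the mAdu mice, against 26.8, 30.8 and 31.2 CPM in the mIgG mice (log2 change -0.02, SE 0.149). Arc, which acts at synapses, was at 166, 234 and 199 CPM in the mAdu mice, against 192, 224 and 199 CPM in the mIgG mice (log2 change -0.04, SE 0.132). In both genes the groups overlapped, with mouse 10 lowest and mouse 11 highest. The 17 genes of the Fos, Jun and Egr families had a median of 0.02, with 10 positive and 7 negative changes, and 0 passed in edgeR's test. This median was 0.28 with the choroid plexus covariate and -0.04 without mouse 11. At an unadjusted p under 0.05, 1 of them was lower and 2 higher, and DESeq2 called 1 higher and limma-voom 2 lower and 3 higher. Of 32 genes in the list of Npas4 and synaptic effectors, Npas4 alone passed and the median was -0.01. Btg2 and Nptx2, an antiproliferative early gene and a secreted pentraxin of synapses, did not pass but separated the groups with log2 changes of -0.41 (SE 0.113) and -0.27 (SE 0.0656). Whether Npas4 differs from these genes in its response was not tested.

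Shisa7, an auxiliary protein of AMPA and GABA-A receptors, fell and was at 23.4, 22.5 and 22.5 CPM in the mAdu mice, against 26.7, 31.2 and 29.2 CPM in the mIgG mice. The change was small at -0.35 (SE 0.0576) on the log2 scale and the spread of the mAdu mice was under 1 CPM, with an adjusted p of 0.0228 (edgeR quasi-likelihood, Benjamini-Hochberg). It was the only one of 17 AMPA receptor subunit and auxiliary genes to pass, and their median was -0.06. Mobp, a structural protein of compact myelin, fell and was at 509, 509 and 498 CPM in the mAdu mice, against 611, 658 and 651 CPM in the mIgG mice (log2 change -0.34, SE 0.0614, adjusted p = 0.0377, edgeR quasi-likelihood, Benjamini-Hochberg). All 20 myelin genes had a negative change, and 5 separated the groups with mAdu lower, beside 8.12% of all genes. At an unadjusted p under 0.05 in edgeR's test 7 were lower, beside 6.69% of all genes, and Mobp alone passed. DESeq2 called 1 lower and limma-voom 7 lower. The median log2 change of the 20 was -0.13. Without mouse 7 the median was -0.21 and without mouse 8 it was -0.07. Mbp, the myelin basic protein, was at 1149.5, 1193 and 1141 CPM in the mAdu mice, against 1219, 1375 and 1241 CPM in the mIgG mice and did not pass (log2 change -0.14, SE 0.0813). The myelin level was uneven within mIgG, at -0.0335, -0.0134 and -0.0243 in mice 10, 11 and 12, against -0.0431, 0.273 and 0.134 in mice 7, 8 and 9.

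The predicted gene Gm43302 was the remaining gene that fell and is counted only. No list held 2 of the 10 genes that rose. Tacr3, the receptor for the neuropeptide neurokinin B, had the smallest p of all 14881 genes. Its level was 4.69, 4.81 and 5.07 CPM in the mAdu mice, against 2.49, 2.11 and 1.83 CPM in the mIgG mice. The lowest mAdu mouse was well above the highest mIgG mouse, and the log2 change was 1.18 (SE 0.141), with an adjusted p of 0.00269 (edgeR quasi-likelihood, Benjamini-Hochberg). Of the other tachykinin genes tested, Tac2, which encodes neurokinin B, had a log2 change of -0.01 and Tac1, the precursor of substance P, 0.15, and neither passed. Dsc3, a cadherin of desmosomes, was at 8.03, 12.9 and 11.2 CPM in the mAdu mice, against 4.97, 6.52 and 5.34 CPM in the mIgG mice (log2 change 0.93, SE 0.161). The mAdu mice varied widely in Dsc3, and mouse 10 was nearest to the mIgG mice. None of the other 6 measured desmosome genes passed, with log2 changes between -0.26 for Dsp and 0.12 for Pkp2.

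Among receptors and secreted factors, Htr1a, the serotonin 1A receptor, was at 41.8, 40.6 and 41.9 CPM in the mAdu mice, against 34.4, 34.7 and 34.4 CPM in the mIgG mice (log2 change 0.26, SE 0.0478). A positive change was seen in 9 of 11 serotonin receptor genes, with a median of 0.19, but Htr1a alone passed. Rspo2, a secreted enhancer of Wnt signalling, was at 28.0, 27.8 and 27.7 CPM in the mAdu mice, against 23.1, 21.5 and 21.1 CPM in the mIgG mice (log2 change 0.35, SE 0.0589), and Cbln2, a synaptic organiser that binds neurexins, at 21.1, 23.6 and 22.7 CPM in the mAdu mice, against 17.7, 16.7 and 18.7 CPM in the mIgG mice (log2 change 0.34, SE 0.0657). Agt, the angiotensin precursor made in the brain by astrocytes, was at 17.9, 18.4 and 19.4 CPM in the mAdu mice, against 14.1, 13.5 and 13.7 CPM in the mIgG mice (log2 change 0.43, SE 0.0736). In Htr1a, Rspo2 and Agt the spread within a group was smaller than the gap between the groups, and in Cbln2 the groups lay closer together without overlap. Adjusted p (edgeR quasi-likelihood, Benjamini-Hochberg) was 0.0299 for Rspo2 and Agt, 0.0301 for Dsc3, 0.0377 for Htr1a and 0.0482 for Cbln2. The lists around them gave no further call, with medians of 0.06 over 22 Wnt pathway genes, 0.05 over 8 cerebellin and partner genes and 0.06 over 7 renin-angiotensin genes.

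The remaining 4 genes that rose act in metabolism and protein turnover. Ppp1r3c, which targets protein phosphatase 1 to glycogen, was at 91.5, 93.7 and 95.0 CPM in the mAdu mice, against 73.0, 78.0 and 78.8 CPM in the mIgG mice (log2 change 0.29, SE 0.0523). Ak4, a mitochondrial adenylate kinase, was at 76.5, 78.9 and 82.2 CPM in the mAdu mice, against 70.1, 60.3 and 65.1 CPM in the mIgG mice (log2 change 0.28, SE 0.0503). Uba6, a ubiquitin-activating enzyme, and Bmt2, the gene of the S-adenosylmethionine sensor Samtor, had log2 changes of 0.30 (SE 0.0585) and 0.22 (SE 0.0418). Each separated the groups fully. Adjusted p was 0.0389 for Ppp1r3c, 0.0377 for Ak4 and 0.0482 for Uba6 and Bmt2 (edgeR quasi-likelihood, Benjamini-Hochberg). Glycogen genes other than Ppp1r3c did not pass, and the median of the 18 was 0.04. Of 23 heat shock and unfolded protein response genes, 20 had a positive change and 8 lay wholly higher with mAdu, with a median of 0.07. In edgeR's test 0 of them passed, with 5 higher and 1 lower at an unadjusted p under 0.05, and DESeq2 called 2 higher and limma-voom 6 higher and 1 lower. Hspa5, the chaperone BiP, was at 292, 314 and 310.2 CPM in the mAdu mice, against 272, 263 and 271 CPM in the mIgG mice (log2 change 0.18, SE 0.0375).

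Genes at the centre of the treatment itself did not pass. Vegfc was at 2.65, 3.44 and 2.86 CPM in the mAdu mice, against 3.67, 2.27 and 2.21 CPM in the mIgG mice (log2 change 0.14, SE 0.180), and Flt4 at 1.31, 1.13 and 1.37 CPM in the mAdu mice, against 1.26, 1.43 and 1.26 CPM in the mIgG mice (log2 change -0.05, SE 0.201). Both genes overlapped between the groups, which received the same vector, so these values do not check the vector. Of 16 genes of VEGF ligands, receptors and neuropilins, 0 passed in edgeR's test, with 1 higher at an unadjusted p under 0.05, 0 by DESeq2 and 2 higher by limma-voom. App and the 12 other genes of amyloid precursor processing had a median of 0.02, and 0 passed in edgeR's test, with 1 higher at an unadjusted p under 0.05, 0 by DESeq2 and 1 higher by limma-voom. Genes of amyloid degradation and transport had a median of -0.04 over 20 members, 0 of which passed in edgeR's test. At an unadjusted p under 0.05, 1 was lower and 2 higher, and DESeq2 called 0 and limma-voom 2 higher. App itself had a log2 change of 0.15 (SE 0.290), with an error that includes the spread of the eGFP+mAdu mice given above.

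**Figure D5:**
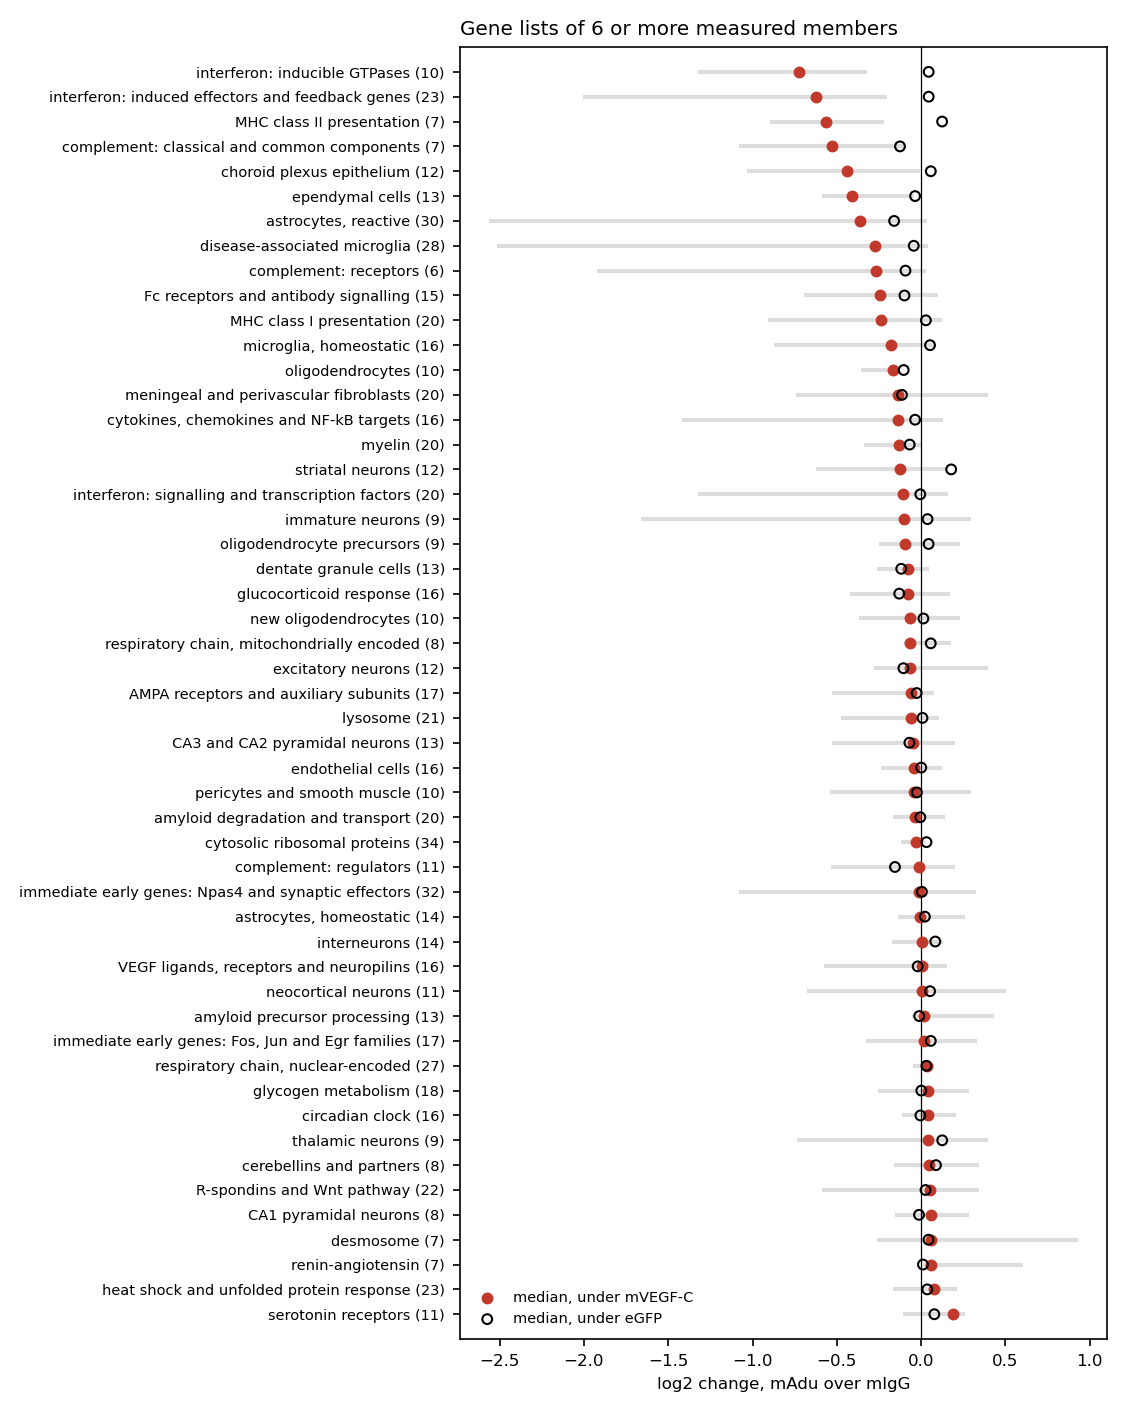
Medians of log2 change (mAdu over mIgG) for lists of 6 or more measured members, numbers in brackets, under mVEGF-C (filled) and under eGFP (open), with grey bars from the lowest to the highest member under mVEGF-C. The inducible GTPases (-0.72 under mVEGF-C, 0.05 under eGFP) and interferon effectors (-0.62 and 0.05) lie at the top, and most neuronal and metabolic lists lie near 0 under both vectors.

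The same antibody comparison under the control vector was made in other mice, and its log2 changes are set beside those under mVEGF-C. The eGFP+mAdu group includes mouse 5, whose App level went against the APPswe label, and mouse 6, whose App level was intermediate. What this does to the eGFP values was not tested. For Ifit3 the log2 change was -1.11 (SE 0.157) under mVEGF-C and 0.01 (SE 0.154) under eGFP, and for C3 it was -1.08 (SE 0.170) and -0.48 (SE 0.161). For Npas4 it was -1.08 (SE 0.129) under mVEGF-C and -0.33 (SE 0.137) under eGFP, and for Lcn2 -2.56 (SE 0.479) and -1.47 (SE 0.344). The 21 genes that fell had a median of -0.88 under mVEGF-C and -0.05 under eGFP, where 13 of the 21 kept the sign, and the 10 that rose had 0.32 and 0.16, where 10 of 10 kept it. In 19 of the 21 the mVEGF-C+mAdu mean was the lowest of the 4 groups, and in 19 the mVEGF-C+mIgG mean was the highest, with both true in 17. Of the 10 that rose, mVEGF-C+mAdu was the highest in 7 and mVEGF-C+mIgG the lowest in 6. Tacr3 was at 4.86 ± 0.197 CPM in mVEGF-C+mAdu, 2.14 ± 0.329 in mVEGF-C+mIgG, 4.83 ± 0.455 in eGFP+mAdu and 4.57 ± 0.515 in eGFP+mIgG (SD, n = 3 each). The mVEGF-C+mIgG mice were the lowest 3 of the 12 in this gene. The 31 genes were chosen by the comparison that includes these mice, so the order of groups is a description.

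The difference between vectors was tested gene by gene as an interaction, which draws on the same eGFP mice, mouse 5 included. Across 14881 genes, 2 (0.0134%) passed (edgeR quasi-likelihood, Benjamini-Hochberg), and 0 of the 31 did, the smallest adjusted p among them being 0.111 for Tacr3. The unadjusted interaction p was under 0.05 in 25 of the 31, beside 6.82% of all genes. DESeq2's Wald test called 5 of the 31, beside 0.0538% of all genes, and limma-voom with quality weights called 19, beside 1.48% of all genes. The 31 genes were chosen by the mVEGF-C contrast, which is part of the interaction, so nothing is read from these counts. Ide, insulin-degrading enzyme, which also cleaves amyloid beta, passed the interaction with -0.364 (SE 0.0539, adjusted p = 0.0405, edgeR quasi-likelihood). It was at 79.6, 80.5 and 83.1 CPM in the mAdu mice, against 71.1, 76.7 and 75.7 CPM in the mIgG mice under mVEGF-C, a log2 change of 0.12 (SE 0.0383), beside 0.48 (SE 0.0380) under eGFP. Under mVEGF-C the Ide groups did not overlap, but the gene did not pass. The other, ENSMUSG00000045999, has no symbol in the annotation used.

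Of the 31 calls, Tacr3 and Npas4 passed in all 12 settings that left out 1 library. These 2 genes were also the only calls left without mouse 9 and without mouse 12, and without both of these intermediate libraries 0 genes passed in edgeR's test, with 1103 at an unadjusted p under 0.05. The median absolute log2 change of the 31 was then 0.72, beside 0.70 with all libraries, and its median SE 0.157, beside 0.124. The number of genes that passed was 138 without mouse 7, 52 without mouse 5, 13 without mouse 3, 12 without mouse 11, 4 without mouse 6 and 3 without mouse 10. All 31 kept their direction in each setting tried. Each was chosen from these libraries and separates the groups fully, so leaving out libraries could hardly reverse a direction, and nothing is read from this.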

How the data were processed

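RNA of 12 mice was sequenced. The authors deposited 1 table of whole read counts by gene and library, to which no normalization had been applied. The submitters' processing notes name build mm10 and the tools STAR, Subread, featureCounts, Trim Galore, FastQC and edgeR. Use of strand and of multi-mapped reads in counting is not given in the sources used here. All 14881 genes passed edgeR's filterByExpr. Symbols and coordinates came from GENCODE on GRCm38, with 84 identifiers unnamed.

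Counts of all 12 libraries were fitted in edgeR 4.0.16 (R 4.3.3, TMM scaling, 1 mean per group), and contrasts were tested two-sided by quasi-likelihood F-tests at a Benjamini-Hochberg adjusted p of 0.05. Library totals ran from 23213612 to 29295266 reads, and the common biological coefficient of variation was 5.16%. CPM, computed here, use the TMM-scaled totals, and list levels use log2 CPM with a prior count of 2. Alternatives were DESeq2 1.42.0, limma-voom with quality weights (limma 3.58.1), other scalings and filters, GC and length offsets, a choroid plexus covariate and left-out libraries. The scripts were tested on simulated counts. Motifs were searched with Python 3.11.15 and figures drawn with matplotlib 3.10.9.

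The 58 gene lists and the followed genes were chosen with earlier results of these data known. Named are all genes that passed and are not predicted genes, up to 4 further genes per list with the smallest unadjusted p, 16 genes followed in any case, and genes with an interaction; genes given as log2 change alone (Ifnar1, Ifnar2, Calr, Pdia3, Canx, P2ry12) were chosen after their values were seen.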

Additional observations from a re-analysis of the deposited data

Results flagged for a closer look

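The antibody's log2 change differed between the vectors in 2 genes (mVEGF-C minus eGFP, edgeR interaction). For Ide the difference was -0.364, with 81.0 ± 1.81 CPM in mVEGF-C+mAdu and 74.5 ± 2.97 CPM in mVEGF-C+mIgG, beside 99.5 ± 0.862 CPM in eGFP+mAdu and 71.1 ± 1.34 CPM in eGFP+mIgG (SD, n = 3 each). For ENSMUSG00000045999 the difference was 6.73 and lay with the eGFP+mIgG mice. Its levels were 108.4, 149.9 and 112.8 CPM in mVEGF-C+mAdu and 170.0, 1037 and 131.9 CPM in mVEGF-C+mIgG, beside 154.1, 235.8 and 151.7 CPM in eGFP+mAdu and 91435, 91826 and 24414 CPM in eGFP+mIgG.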

How the results depend on the processing

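The antibody comparison under mVEGF-C gave 31 genes, with 126 by DESeq2's Wald test, 1234 by limma-voom with quality weights, 48 with GC and length offsets, 118 at an adjusted p of 0.1, 6 from the 6 mVEGF-C libraries alone, and 0 in edgeR's test with a choroid plexus covariate, without libraries 9 and 12, and without 3, 6, 9 and 12 (949, 1103 and 683 at an unadjusted p under 0.05). The median absolute log2 change of the 31 was 0.703 with all libraries (median SE 0.124), 0.531 with the covariate (0.196), and 0.718 without either set of libraries (0.157 and 0.179). The choroid plexus level differed between the groups, so covariate and antibody cannot be told apart. Leaving out 1 library gave 2 genes (without mouse 9, or mouse 12) to 138 (without mouse 7), with 3 without mouse 10, 4 without mouse 6, 12 without mouse 11, 13 without mouse 3 and 52 without mouse 5. The interaction gave 2 genes, with 8 by the Wald test, 220 by limma-voom, 1 with GC and length offsets, and 0 with the covariate or without either set of intermediate libraries. Leaving out 1 library gave 0 to 36 (without mouse 7). DESeq2 size factors, no filter and a minimum of 1 CPM left both counts within 1.5 times. All 31 genes kept their direction in each setting, which full separation of the groups makes nearly certain when libraries are left out. The cause of the moved counts was not tested. Over all settings, the 30 named genes that passed kept an adjusted p under 0.05 in 355 values and lost it in 305, while list medians moved by more than the replicate spread in 40 values and by less in 1235. Leaving out 1 library moved the median by over 1.5 times in 10 of 25 lists whose median lay at least 0.1 from 0 and in 29 of the 33 nearer to 0, with a change of sign in 1 of the 25 and 15 of the 33. A list with 1 member, monocytes and neutrophils, gave no value at the minimum of 1 CPM. No paired analysis was possible because the groups share no replicate numbers. Genes at a few CPM or less, such as Lcn2 and Cst7, rest on fewer reads and carry larger errors.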

Other observations

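Some gene groups outside the account above had values of their own. Of 16 cytokine, chemokine and NF-kB target genes, 0 passed in edgeR's test, with 6 lower and 0 higher at an unadjusted p under 0.05, 0 by DESeq2 and 1 lower by limma-voom. Their median log2 change was -0.14, beside 0.00118 over all genes. Cxcl10, a chemokine induced by interferon, was at 0.192, 0.606 and 0.161 CPM in the mAdu mice, against 0.815, 0.994 and 0.762 CPM in the mIgG mice (log2 change -1.42, SE 0.464). The groups did not overlap, and the gene did not pass.

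Apod, a lipid-binding lipocalin, was at 159.7, 166 and 162 CPM in the mAdu mice, against 201, 335 and 277 CPM in the mIgG mice (log2 change -0.74, SE 0.149), without overlap and without passing. Wnt9a, a Wnt ligand, was at 5.57, 5.66 and 6.24 CPM in the mAdu mice, against 9.57, 8.67 and 8.04 CPM in the mIgG mice (log2 change -0.59, SE 0.127). Ltc4s, leukotriene C4 synthase, was at 1.15, 1.21 and 1.25 CPM in the mAdu mice, against 2.32, 1.91 and 2.40 CPM in the mIgG mice (log2 change -0.88, SE 0.180). Both genes separated the groups and did not pass.

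The medians of neuronal and vascular lists ranged from -0.12 over 12 striatal neuron markers, 9 of them negative, and -0.10 over 9 markers of immature neurons, 7 of them negative, to 0.06 over 8 of CA1 pyramidal neurons. The median was -0.08 over 13 markers of dentate granule cells, 0.00 over 14 of interneurons and -0.04 over 16 of endothelial cells. With the choroid plexus covariate the striatal median was 0.02 and the immature neuron median 0.15. The immature neuron median was -0.26 without mouse 7 and -0.04 without mouse 8. Without mouse 7 the dentate median was 0.005. Among immature neuron markers, Eomes, a transcription factor of intermediate progenitors, had a log2 change of -1.66 (SE 0.595) and Sox11, a transcription factor of young neurons, one of 0.30 (SE 0.0687), and both separated the groups. In edgeR's test 0 genes of these lists passed. With an unadjusted p under 0.05, beside 6.69% of all genes lower and 6.04% higher, there were 3 striatal markers lower, 2 immature neuron markers lower and 1 higher, 2 CA1 markers higher, 3 dentate markers lower, 1 interneuron marker lower and 2 higher, and 1 endothelial marker lower. DESeq2 called 1 immature neuron and 1 CA1 marker higher. Limma-voom called 1 striatal, 2 immature neuron and 2 dentate markers lower, and 1 immature neuron and 2 CA1 markers higher. Nuclear-encoded respiratory chain genes had a positive change in 23 of 27, with a median of 0.03, and 0 passed in edgeR's test, at an unadjusted p under 0.05, in DESeq2 or in limma-voom.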
